A study of Mus musculus with 12 samples.

Results

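A block of 47 genes, 40 of them on the lists of skeletal muscle genes used here, was high in 1 inguinal fat array of each genotype and low in the other array of each genotype. They were chosen from the 22180 mouse genes that had a probe with a single gene symbol, taking for each gene the probe that was brightest on average over the 12 arrays. A gene was included where the lower of Mgl2-DTR replicate 1 and wild-type replicate 2 exceeded the higher of wild-type replicate 1 and Mgl2-DTR replicate 2 by over 1.5 on the log2 scale. That distance is called the gap here, and the inguinal values that follow are the values that chose the genes, so they are described without a test. The rule picked 0.212% of all genes, and with the high and low arrays exchanged it picked 0 genes.

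The study measured RNA on an Affymetrix mouse gene array in inguinal white fat, epididymal white fat and liver, using 2 arrays per genotype and tissue. In Mgl2-DTR mice, Mgl2, which encodes the lectin CD301b of some mononuclear phagocytes, drives a receptor for diphtheria toxin, so that the toxin kills cells that express it. The other genotype was wild-type, and both were male, on the C57BL/6N background and matched for age, with the age itself not stated. Every mouse, wild-type mice included, received 500 ng of diphtheria toxin per dose into the abdomen, with doses 3 days apart, and tissue was taken on day 10. Whether replicates came from separate mice is not stated, so p-values here reflect the spread between samples that may be technical, and precision is limited by having 2 arrays in each group.

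Skeletal muscle is built of fibres whose sarcomeres slide thick filaments of myosin along thin filaments of actin. Calcium released from the sarcoplasmic reticulum binds troponin on the thin filament and starts contraction, and the SERCA pump returns it to the store. Fast fibres use fast forms of myosin, troponin and SERCA and draw on glycogen and phosphocreatine, while slow fibres use other forms of the same proteins and rely more on mitochondria. Inguinal white fat lies under the skin of the groin, next to muscle of the body wall and thigh.

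The promoters of 4 of the genes are shown because they carry the widest gaps among the myosins, calcium pumps, glycogen enzymes and creatine kinases. Myh4 encodes the fast myosin heavy chain of type IIb fibres, Atp2a1 the fast SERCA1 pump, Pygm muscle glycogen phosphorylase and Ckm muscle creatine kinase. Each run covers 300 bases around the gene's start, most of them before it, read 5′ to 3′ on the gene's strand, from RefSeq on GRCm38.p6. The regions are chr11:67237562-67237861 on the plus strand for Myh4, chr7:126463024-126463323 on the minus strand for Atp2a1, chr19:6384158-6384457 on the plus strand for Pygm and chr7:19410844-19411143 on the plus strand for Ckm. Capitals mark matches on either strand to the E-box CANNTG, which myogenic regulators of the MyoD family bind, to the MEF2 and CArG box patterns, or to TATAAA.
Myh4: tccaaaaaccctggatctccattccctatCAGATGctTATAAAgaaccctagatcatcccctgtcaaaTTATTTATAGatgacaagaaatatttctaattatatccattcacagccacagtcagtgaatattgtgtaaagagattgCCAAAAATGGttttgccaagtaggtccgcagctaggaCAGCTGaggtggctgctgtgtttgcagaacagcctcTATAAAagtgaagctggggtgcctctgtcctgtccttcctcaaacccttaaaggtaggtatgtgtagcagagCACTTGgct
Atp2a1: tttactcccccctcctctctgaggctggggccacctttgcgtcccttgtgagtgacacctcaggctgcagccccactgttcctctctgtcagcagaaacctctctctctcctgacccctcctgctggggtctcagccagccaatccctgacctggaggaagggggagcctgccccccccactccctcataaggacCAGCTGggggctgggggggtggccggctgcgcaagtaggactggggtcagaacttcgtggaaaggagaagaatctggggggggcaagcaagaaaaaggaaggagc
Pygm: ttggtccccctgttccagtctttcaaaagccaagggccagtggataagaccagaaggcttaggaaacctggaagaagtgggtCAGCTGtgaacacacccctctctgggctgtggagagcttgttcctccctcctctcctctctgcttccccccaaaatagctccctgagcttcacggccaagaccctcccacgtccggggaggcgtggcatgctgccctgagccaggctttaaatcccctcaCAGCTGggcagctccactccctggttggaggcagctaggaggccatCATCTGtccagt
Ckm: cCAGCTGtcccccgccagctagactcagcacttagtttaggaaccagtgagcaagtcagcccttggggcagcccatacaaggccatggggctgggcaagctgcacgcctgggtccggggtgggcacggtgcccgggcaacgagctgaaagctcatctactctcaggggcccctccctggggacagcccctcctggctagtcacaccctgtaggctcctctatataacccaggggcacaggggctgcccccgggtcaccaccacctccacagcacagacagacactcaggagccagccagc

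Promoters in RefSeq's table, searched without chromosome 18, where Myot lies, were found for 34 of the 47 genes, 42 promoters in all. The E-box CANNTG was present in 38 of the 42 (90.5%), against 72.3% of all 32851 promoters of the same length on the chromosomes searched. Its form CAGCTG, which is also a CANNTG, was present in 20 (47.6%), against 16.3% of all promoters. The MEF2 pattern was in 7 (16.7%) against 3.19%, and the CArG box pattern in 4 (9.52%) against 1.63%. TATAAA was in 7 of the 42 (16.7%), against 13.6% of all promoters. Among the 4 promoters shown, that of Myh4 held the MEF2 pattern and the CArG box pattern, and all 4 held the E-box. A match is a description of the letters and not a site of binding.

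All 4 inguinal arrays carried the markers of white fat. Adipoq, the gene for adiponectin, stood at a log2 level of 11.18 and 11.16 in Mgl2-DTR replicates 1 and 2, against 11.08 and 10.94 in wild-type replicates 1 and 2. Of 11 white adipocyte genes measured, 0 had a gap above 0, and the mean log2 level of that list was 12.02 and 11.91 in Mgl2-DTR replicates 1 and 2, against 11.89 and 11.80 in wild-type replicates 1 and 2. The 47 genes, by contrast, had a median log2 level of 7.95 and 5.57 in the Mgl2-DTR arrays, replicates 1 and 2, against 5.58 and 8.03 in the wild-type arrays, replicates 1 and 2. In each genotype 1 array therefore stood apart from the other by these genes. In bulk tissue, fewer cells of a type and less RNA per cell cannot be told apart.

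**Figure D1:**
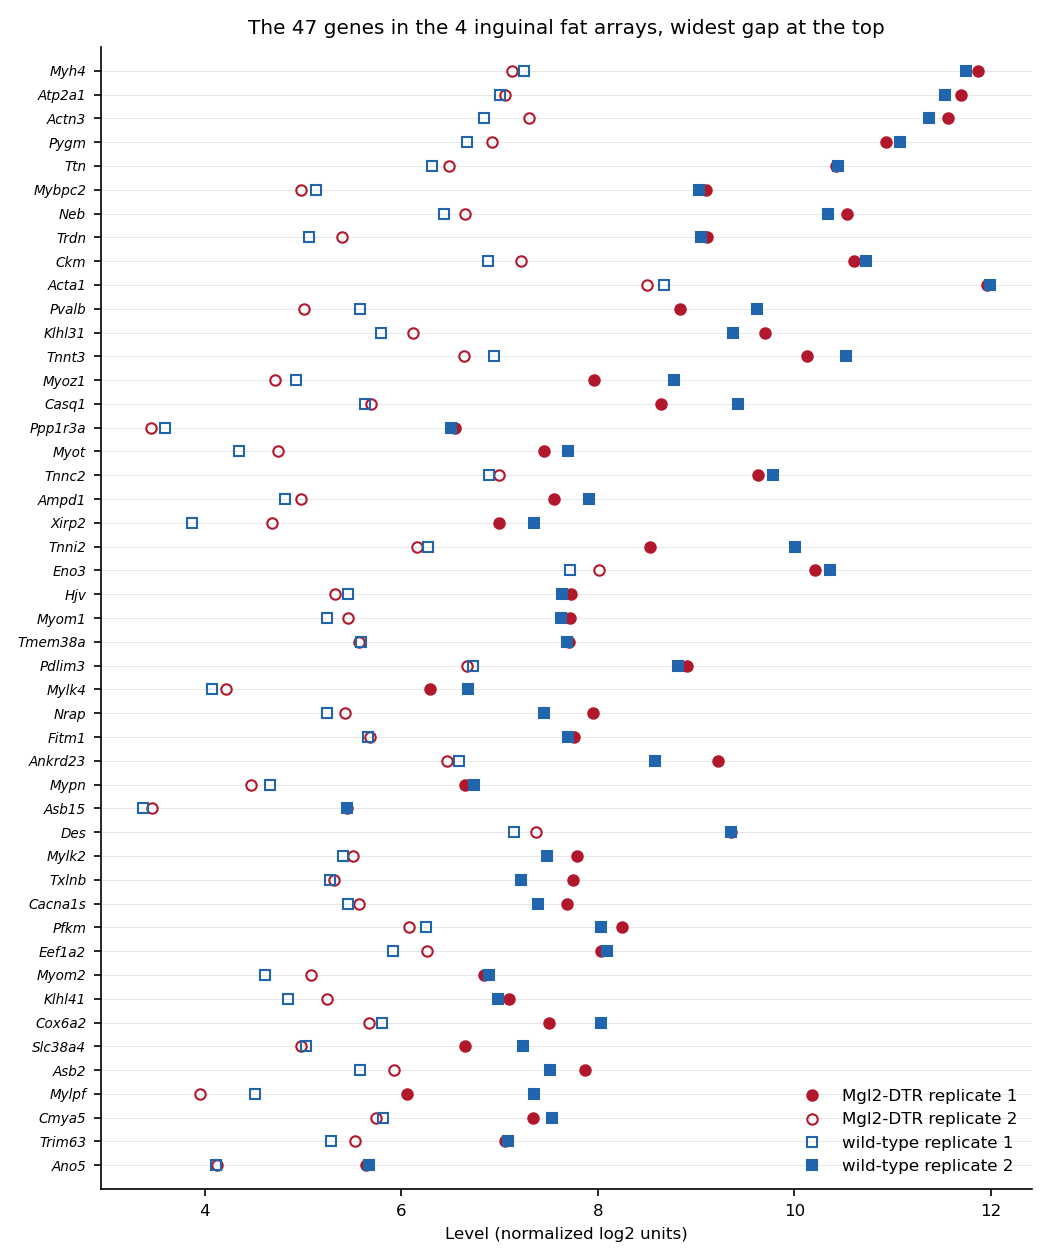
Level of each of the 47 genes in the 4 inguinal fat arrays, in normalized log2 units, with 1 point per array and the widest gap at the top. Filled points (Mgl2-DTR replicate 1, circles, and wild-type replicate 2, squares) lie right of open points (Mgl2-DTR replicate 2, circles, and wild-type replicate 1, squares) for every gene, as the rule requires, with gaps of 1.52 to 4.50.

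The gap ran from 1.52 to 4.50 with a median of 2.17, while the median over all 22180 genes was -0.22. Just inside the margin were Cmya5, a Z-disc and costamere protein gene, with a gap of 1.53, Trim63, the gene for the muscle ubiquitin ligase MuRF1, with 1.52, and Ano5, an anoctamin gene mutated in human muscular dystrophy, with 1.52. Just outside were Rragd, a GTPase gene of the mTORC1 pathway, with 1.43, Ckmt2, the mitochondrial creatine kinase of muscle, with 1.42, and Adssl1, a muscle enzyme of purine synthesis, with 1.39. With Mgl2-DTR replicate 1 left out, the same margin picked 116 genes. The 47 were necessarily among them, because leaving out an array cannot narrow a gap. Of the 47 genes, 40 belonged to at least 1 list of muscle genes used here and 7 to none.

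The thick filament supplied 7 of its 22 measured genes. Myh4 had log2 levels of 11.86 and 7.13 in Mgl2-DTR replicates 1 and 2, against 7.25 and 11.74 in wild-type replicates 1 and 2. The high array of each genotype thus stood far above the low array of either, by at least 22.5-fold, and the 2 high arrays were within 0.12 of each other. Ttn, the gene for titin, the giant spring that spans the sarcomere from Z-disc to M-band, had 10.42 and 6.49 in Mgl2-DTR replicates 1 and 2, against 6.32 and 10.45 in wild-type replicates 1 and 2. Mybpc2, fast myosin-binding protein C, had 9.10 and 4.98 in Mgl2-DTR replicates 1 and 2, against 5.13 and 9.03 in wild-type replicates 1 and 2. All 3 genes were high in the same array of each genotype. The other 4 were the M-band genes Myom1 (gap 2.17) and Myom2 (1.76), the kinase of fast myosin regulatory light chain Mylk2 (1.98), and Mylpf, the fast regulatory light chain itself (1.55).

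Myh4 was the single sarcomeric myosin heavy chain in the block. Myh1, the heavy chain of type IIx fibres, had log2 levels of 5.15 and 4.54 in Mgl2-DTR replicates 1 and 2, against 4.98 and 5.81 in wild-type replicates 1 and 2, a gap of 0.18. Myh2, of type IIa fibres, had 5.50 and 5.77 in Mgl2-DTR replicates 1 and 2, against 5.31 and 5.26 in wild-type replicates 1 and 2, so the high arrays were not the higher ones. Myh7, the slow and cardiac beta chain, had 5.28 and 5.29 in Mgl2-DTR replicates 1 and 2, against 5.43 and 5.06 in wild-type replicates 1 and 2. The gap was also below 0 for the embryonic chain Myh3 (-0.61), the perinatal chain Myh8 (-0.12), the extraocular chain Myh13 (-0.41), the cardiac chain Myh6 (-0.24) and the slow tonic chain Myh7b (-0.32), and it was 0.05 for the smooth muscle chain Myh11. The heavy chain genes share long stretches of near-identical sequence, so the assignment of signal among them is uncertain, and levels of different probes are not compared.

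Thin filament genes gave 7 of 19. Acta1, the actin of skeletal muscle, had log2 levels of 11.96 and 8.50 in Mgl2-DTR replicates 1 and 2, against 8.67 and 11.99 in wild-type replicates 1 and 2. Neb, the gene for nebulin, the ruler of the thin filament, had a gap of 3.69. The members also held all 3 fast troponins. Tnnt3, the tropomyosin-binding subunit, had 10.12 and 6.64 in Mgl2-DTR replicates 1 and 2, against 6.94 and 10.52 in wild-type replicates 1 and 2. Tnnc2, the calcium-binding subunit, had a gap of 2.64, and Tnni2, the inhibitory subunit, had a gap of 2.26. The slow troponins did not share the pattern, with gaps of -0.71 for Tnnt1, -0.53 for Tnni1 and -0.51 for Tnnc1, and neither did the cardiac Tnnt2 (-0.07) and Tnni3 (-0.33). Nrap, an actin-binding protein of growing myofibrils (gap 2.02), and Klhl41, a kelch protein that stabilizes nebulin (1.74), completed the group.

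Z-disc genes gave 8 of 26, with Actn3, the fast-fibre alpha-actinin that cross-links actin, far ahead. Its log2 levels were 11.56 and 7.30 in Mgl2-DTR replicates 1 and 2, against 6.84 and 11.37 in wild-type replicates 1 and 2. Myoz1, a calcineurin-binding Z-disc protein of fast fibres, had 7.96 and 4.71 in Mgl2-DTR replicates 1 and 2, against 4.93 and 8.77 in wild-type replicates 1 and 2. Both genes separated the high from the low arrays by more than 3 on the log2 scale. The gap was 2.70 for Myot (myotilin), 2.31 for Xirp2 (an actin-binding Xin repeat protein), 2.08 for Pdlim3 (an actinin-associated LIM protein), 1.99 for the stretch-responsive Ankrd23 and 1.98 for Des (desmin). Des, the intermediate filament of muscle, is also a smooth muscle gene, and it was the only member among the 12 genes of the smooth muscle list. Of those 12 genes, 7 (58.3%) had a gap above 0, against 12.7% of all genes.

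The calcium group contributed 6 of 28 genes, from store to sensor. Atp2a1 had log2 levels of 11.69 and 7.06 in Mgl2-DTR replicates 1 and 2, against 7.0 and 11.53 in wild-type replicates 1 and 2, a gap of 4.47. Pvalb, the gene for parvalbumin, a cytosolic calcium buffer of fast fibres, had 8.83 and 5.01 in Mgl2-DTR replicates 1 and 2, against 5.58 and 9.62 in wild-type replicates 1 and 2. Casq1, the calcium store protein of fast fibres, had 8.64 and 5.69 in Mgl2-DTR replicates 1 and 2, against 5.63 and 9.42 in wild-type replicates 1 and 2. For Pvalb and Casq1 wild-type replicate 2 was the higher of the high arrays. Trdn, the gene for triadin, which anchors calsequestrin to the release channel, had a gap of 3.65, Tmem38a, a counter-ion channel of the store, 2.09, and Cacna1s, the voltage sensor, 1.82. The pump and store protein of slow and cardiac muscle did not follow, with gaps of -0.26 for Atp2a2 and -0.29 for Casq2, and the release channel gene Ryr1 had a gap of 0.07. The genes of the muscle membrane and neuromuscular junction gave 0 of 22 members, with Sgca (alpha-sarcoglycan) the widest at 0.77. Of these 22 genes, 13 (59.1%) had a smaller gap above 0, against 12.7% of all genes.

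Among glycolysis and glycogen genes 4 of 22 were members. Pygm had log2 levels of 10.94 and 6.92 in Mgl2-DTR replicates 1 and 2, against 6.67 and 11.08 in wild-type replicates 1 and 2, a gap of 4.02. Ppp1r3a, the subunit that targets a phosphatase to glycogen, had a gap of 2.91, the muscle enolase gene Eno3 a gap of 2.20, and the muscle phosphofructokinase gene Pfkm a gap of 1.78. The list of phosphocreatine and nucleotide genes, which also holds an elongation factor gene, gave 3 of 12. Ckm had 10.60 and 7.22 in Mgl2-DTR replicates 1 and 2, against 6.88 and 10.73 in wild-type replicates 1 and 2. Ampd1, muscle AMP deaminase, had a gap of 2.58, and Eef1a2, the elongation factor form of muscle and neurons, had 1.78. Oxidative genes gave 1 of 21, the muscle subunit of cytochrome c oxidase Cox6a2. It had 7.50 and 5.67 in Mgl2-DTR replicates 1 and 2, against 5.80 and 8.03 in wild-type replicates 1 and 2. Mb, the gene for myoglobin, had a gap of 0.51 and stayed outside.

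Of 25 genes of proteolysis and growth control, 4 were members. Klhl31, a kelch protein of muscle, had the widest gap at 3.25, followed by the ankyrin-repeat ubiquitin ligase subunits Asb15 (1.98) and Asb2 (1.58) and by Trim63. Mstn, the gene for myostatin, a brake on muscle growth, had a gap of 1.09. Of 17 myogenic regulators 0 were members, the nearest being the splicing factor gene Rbm24 (1.23) and Myf6 (1.13), a MyoD family regulator of mature fibres. Of 8 satellite cell genes, which mark the stem cells of muscle, 0 were members. A gap above 0 was found for 6 of the myogenic regulators (35.3%) and 1 of the satellite cell genes (12.5%), against 12.7% of all genes. The 7 members outside the lists were Hjv (2.18), the bone morphogenetic protein co-receptor hemojuvelin, the kinase gene Mylk4 (2.08), the lipid droplet gene Fitm1 (2.01), the Z-disc protein gene Mypn (1.99), the taxilin gene Txlnb (1.90), the amino acid transporter gene Slc38a4 (1.61) and Ano5.

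By fibre type, 13 of 19 fast fibre genes and 0 of 16 slow fibre genes were members. The median gap was 2.58 over the 19 fast genes and -0.31 over the 16 slow genes, and 18 fast genes but 0 slow genes had a gap above 0, against 12.7% of all genes. The 6 fast genes left out were Myh1, Myh2, the essential light chain Myl1 (0.27), Myoz3 (0.24), the muscle fructose bisphosphatase Fbp2 (0.03) and the phosphoglycerate mutase Pgam2 (0.94). Developmental muscle genes gave 0 of 8 and cardiac genes 0 of 12. Of the genes of neighbouring tissues, 0 of 9 tendon, 0 of 9 Schwann cell and 0 of 12 brown adipocyte genes were members. Members were also 0 of 11 keratinocyte, 0 of 11 lymph node and B cell, and 0 of 10 endothelial genes. The rule picked 0.212% of all genes, so 0 members in lists this short says little. A gap above 0 was found for 37.5% of developmental muscle, 33.3% of brown adipocyte and 22.2% of Schwann cell genes. It was found for 11.1% of tendon, 9.09% of keratinocyte and 0% of cardiac, lymph node and B cell, and endothelial genes, against 12.7% of all genes. No probe for a hairpin of the muscle microRNA genes Mir1a-1, Mir133a-1, Mir133b and Mir206 was a member.

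**Figure D2:**
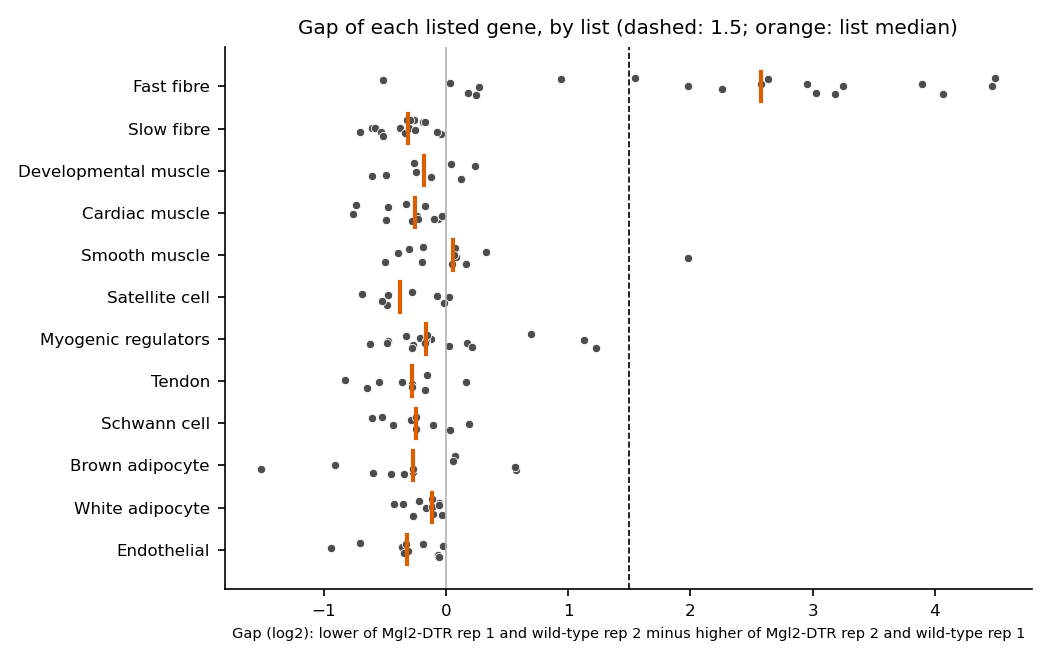
Gap of each measured gene of 12 lists on the log2 scale, with 1 point per gene, an orange line at the list median and a dashed line at the margin of 1.5. Fast fibre genes reach 4.50 with a median of 2.58, while the slow fibre genes lie at or below -0.04.

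Within the high arrays the genes did not all stand at the same height. Mgl2-DTR replicate 1 minus wild-type replicate 2 had a median of -0.02 over the 47 genes (0.09 over all genes), and 37 of them lay within 0.5 of each other on the log2 scale. It was below 0 for 26 genes (55.3%) and above 0 for 21, where 36.7% of all genes were below 0. The extremes were 7 genes more than 0.5 lower in Mgl2-DTR replicate 1 and 3 genes more than 0.5 higher. Tnni2 was the lowest, with log2 levels of 8.53 in Mgl2-DTR replicate 1 and 10.01 in wild-type replicate 2, a difference of -1.48. Mylpf followed with 6.06 in Mgl2-DTR replicate 1 and 7.35 in wild-type replicate 2, a difference of -1.29. Myoz1, Pvalb and Casq1 were next, with differences of -0.81, -0.78 and -0.78. These 5 are fast fibre genes, while Slc38a4 (-0.59) and Cox6a2 (-0.53) are not in that list. The 3 higher genes were Ankrd23 (0.64), Txlnb (0.53) and Nrap (0.50).

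The fast fibre genes themselves were split. Of the 13 picked, 8 were lower and 5 were higher in Mgl2-DTR replicate 1 than in wild-type replicate 2, the 5 being Myh4, Atp2a1, Actn3, Mybpc2 and Mylk2. Taking as excess the linear level above the mean of the low arrays, the excess in Mgl2-DTR replicate 1 over that in wild-type replicate 2 had a median ratio of 0.750 over these 13 genes, with a range of 0.309 to 1.31. Over all 47 genes the median ratio was 0.984. No slow gene was a member, so the same ratio could not be set beside it for slow fibres. Pgam2, outside the margin, also differed between the high arrays, with 5.38 and 4.44 in Mgl2-DTR replicates 1 and 2, against 4.29 and 7.29 in wild-type replicates 1 and 2. Some lists of other cell types differed between the high arrays as well. Mgl2-DTR replicate 1 was the higher of these arrays for 10 of 10 endothelial, 9 of 9 tendon, 8 of 9 Schwann cell and 10 of 11 white adipocyte genes, against 63.3% of all genes. The share was nearer to that of all genes for smooth muscle (66.7%), satellite cell (62.5%), cardiac (58.3%), and lymph node and B cell genes (72.7%). For brown adipocyte genes it was 50%. The endothelial list's mean log2 level was 9.49 and 9.0 in Mgl2-DTR replicates 1 and 2, against 8.86 and 8.74 in wild-type replicates 1 and 2. Both Mgl2-DTR arrays were thus above both wild-type arrays by that mean. Of 11 keratinocyte genes, 8 were lower and 3 higher in Mgl2-DTR replicate 1 than in wild-type replicate 2, and that list's mean was 5.04 and 5.11 in Mgl2-DTR replicates 1 and 2, against 4.90 and 5.56 in wild-type replicates 1 and 2. Their part in the difference between the high arrays was not tested.

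**Figure D3:**
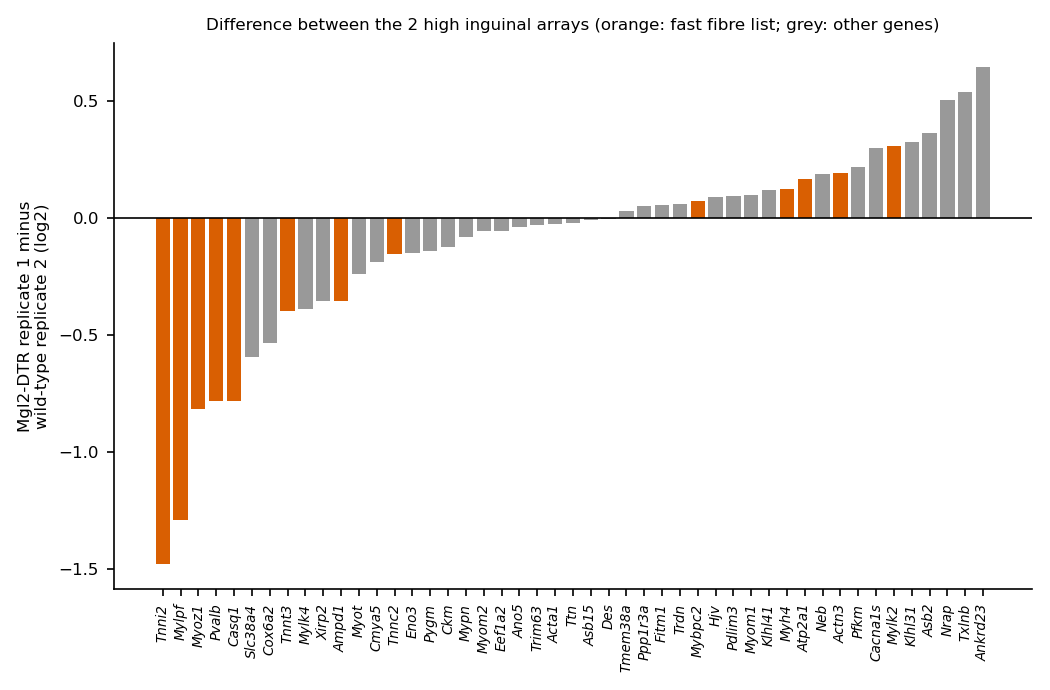
Difference between Mgl2-DTR replicate 1 and wild-type replicate 2 in inguinal fat for each of the 47 genes, in log2 units, with 1 bar per gene from lowest to highest and fast fibre genes in orange. The bars run from -1.48 for Tnni2 to 0.64 for Ankrd23, and the lowest 5 are all orange.

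The low arrays were closer to each other. Mgl2-DTR replicate 2 minus wild-type replicate 1 had a median of 0.09 over the 47 genes and 0.10 over all genes, and 44 of the 47 lay within 0.5. Averaged over its replicates, the Mgl2-DTR minus wild-type difference in inguinal fat had a median of 0.04, with a range of -0.93 to 0.35, and the median of all genes was 0.10. It was above 0 for 29 genes and below 0 for 18, and the shares over all genes were not counted. Because each genotype holds 1 high and 1 low array, the genotypes overlap for all 47 genes by the way they were chosen.

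The low inguinal arrays were also compared with epididymal fat. For 31 of the 47 (66.0%) both low arrays stood above all 4 epididymal arrays, against 18.8% of all genes. The distance from the highest epididymal array to the lower of the low inguinal arrays had a median of 0.15 over the 47 genes, with a range of -1.80 to 1.59, and Myh4 was at the top of it. Myh4 stood at 7.13 in inguinal Mgl2-DTR replicate 2 and 7.25 in wild-type replicate 1, while in epididymal fat it had 3.55 and 4.06 in Mgl2-DTR replicates 1 and 2, against 3.66 and 5.54 in wild-type replicates 1 and 2. Epididymal wild-type replicate 2 was thus the highest of its tissue for Myh4. It was the highest of the 4 epididymal arrays for 22 of the 47 genes (46.8%), against 20.5% of all genes, and by more than 0.5 for 5 of them. Those 5 were Myh4 (1.48 above the next array), Actn3 (0.96), Ttn (0.72), Acta1 (0.67) and Atp2a1 (0.65).

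**Figure D4:**
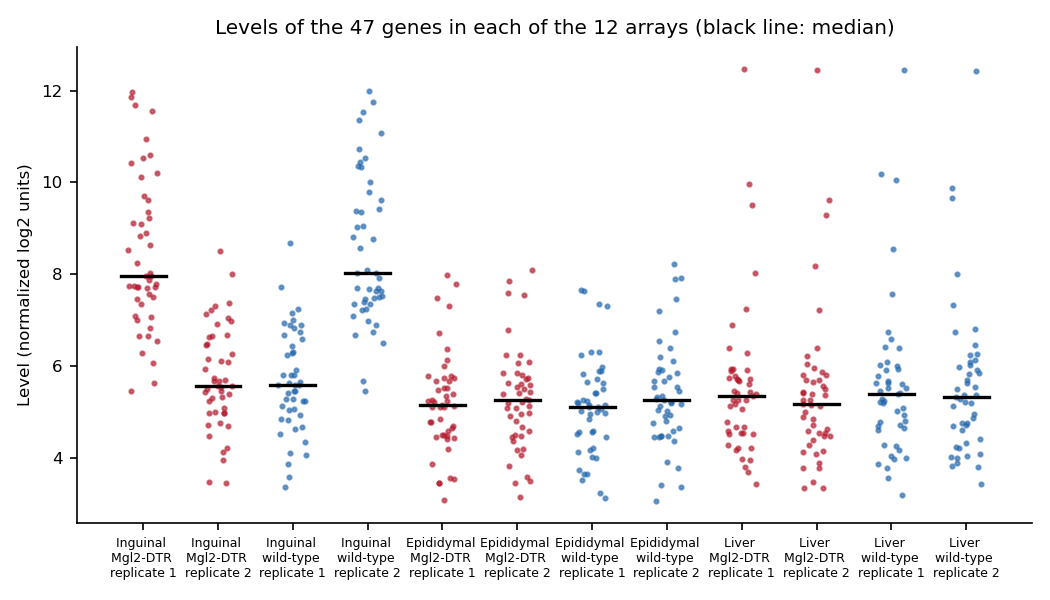
Levels of the 47 genes in each of the 12 arrays, in normalized log2 units, with 1 point per gene, a black line at the median, red for Mgl2-DTR and blue for wild-type. The medians are 7.95 and 8.03 in the high inguinal arrays, 5.57 and 5.58 in the low inguinal arrays, and 5.11 to 5.39 in the epididymal and liver arrays.

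The epididymal and liver arrays did not enter the rule, so genotype and tissue were tested there with limma over all 22180 genes, on 8 arrays. In epididymal fat 0 of the 47 genes passed an adjusted p under 0.05 between Mgl2-DTR and wild-type mice, where 0.00451% of all genes were called lower and 0% higher. With limma's unadjusted p under 0.05 there were 4 of the 47 (8.51%), and 1027 of all genes (4.63%). The median change was -0.01, and 0.13 with wild-type replicate 2 left out, again with 0 members called. Without Mgl2-DTR replicate 1, Myom2 was called, with a change of 1.03 and a limma adjusted p of 0.0414, so that 2.13% of the 47 genes were called where 2.01% of all genes were. Ckm had the smallest p, with log2 levels of 5.52 and 5.49 in Mgl2-DTR replicates 1 and 2, against 5.99 and 6.19 in wild-type replicates 1 and 2. The groups did not overlap and the change was -0.59 with an SE of 0.14, but the limma adjusted p was 0.86. With the other probe of Ckm the change was -0.04. The next were Tnni2 (-0.41), Ano5 (0.53) and Atp2a1 (-0.58), then Asb2 (0.57) and Eef1a2 (-0.41), each with a limma adjusted p of 0.96. Single arrays moved some of these changes: Atp2a1 had -0.25 without wild-type replicate 2 and -0.90 without wild-type replicate 1. Without wild-type replicate 1, Eef1a2 had -0.19 and Ano5 had 0.30, and without wild-type replicate 2 Eef1a2 had -0.64. Ano5 had 0.31 without Mgl2-DTR replicate 1.

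In liver, likewise, 0 of the 47 genes were called, with 0.00451% of all genes called lower and 0% higher. By limma's unadjusted p under 0.05 there were 2 of the 47 (4.26%) and 1134 of all genes (5.11%). The median change was -0.12 (-0.01 over all genes). Leaving out 1 array at a time gave medians from -0.18 without Mgl2-DTR replicate 1 to -0.04 without Mgl2-DTR replicate 2. Tnni2 averaged 5.65 in Mgl2-DTR livers and 6.28 in wild-type livers, a change of -0.63 with an SE of 0.16 and a limma adjusted p of 0.871. The changes of Klhl41 (-0.42), Fitm1 (-0.46), Cox6a2 (-0.54), Tmem38a (-0.28) and Ankrd23 (-0.41) were the next by p, with limma adjusted p of 0.944 to 0.984. Fitm1 had -0.27 without wild-type replicate 1 and Tmem38a had -0.17 without wild-type replicate 2. The difference between the epididymal and the liver change was called for 0 of the 47 genes and 0% of all genes. At limma's unadjusted p under 0.05 the numbers were 0 (0%) and 1215 (5.48%). The median of this difference over the 47 genes was 0.16, and 0.05 to 0.23 with 1 array left out. It was 0.10 without epididymal Mgl2-DTR replicate 2, 0.05 without epididymal wild-type replicate 1, 0.08 without liver Mgl2-DTR replicate 2 and 0.07 without liver wild-type replicate 1.

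Epididymal fat and liver did differ in some of these genes. In limma 16 of the 47 passed an adjusted p under 0.05 (34.0%), where 45.7% of all genes did. With all 12 arrays in the fit, 6 of these 16 remained called (12.8% of the 47), while 50% of all genes were. The members were chosen for differing between inguinal arrays of the same genotype, and that spread enters this fit. The lower number called under it therefore does not bear on epididymal fat or liver. In the fit of 8 arrays, 8 of the 47 genes were called higher in epididymal fat, where 22.5% of all genes were. Called lower were 8 of the 47, where 23.2% of all genes were. Des was 2.22 higher with an SE of 0.12 and a limma adjusted p of 6.04e-06. Its log2 levels were 7.98 and 7.86 in Mgl2-DTR and 7.65 and 7.93 in wild-type epididymal fat, against 5.68 and 5.80 in Mgl2-DTR and 5.68 and 5.37 in wild-type liver. Every epididymal array was above every liver array for this gene. Pdlim3 was 2.09 higher, Myom1 1.09, Acta1 1.07, Pygm 0.84, Actn3 0.81, Ano5 0.51 and Tmem38a 0.34. Des and Pdlim3 are also expressed in smooth muscle, and the mean log2 level of the 12 smooth muscle genes was 7.22 to 8.22 in the epididymal arrays, against 6.12 to 6.30 in the liver arrays. The part of smooth muscle in these differences was not tested.

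The 8 genes lower in epididymal fat than in liver were led by Slc38a4, Hjv and Fitm1. Slc38a4, an amino acid transporter of hepatocytes, had 5.74 and 6.78 in Mgl2-DTR and 5.41 and 5.85 in wild-type epididymal fat, against 12.48 and 12.44 in Mgl2-DTR and 12.44 and 12.42 in wild-type liver. The difference was -6.50 with an SE of 0.22 and a limma adjusted p of 4.51e-07. Hjv, which controls the iron hormone hepcidin in the liver, differed by -4.85, and Fitm1 by -4.32, or by -1.30 with its other probe. For these 3 genes, 6.38% of the 47, all 4 liver arrays also stood above all 4 inguinal arrays, against 16.8% of all genes. Neb differed by -2.75 with an SE of 0.21 and a limma adjusted p of 3.94e-05. It had 5.51 and 5.19 in Mgl2-DTR and 5.10 and 5.94 in wild-type epididymal fat, against 8.02 and 8.18 in Mgl2-DTR and 8.54 and 8.01 in wild-type liver. Its liver arrays thus stood above both low inguinal arrays, at 6.65 and 6.44, and below both high ones. The last 4, Mypn (-0.51), Mylpf (-0.46), Tnnc2 (-0.45) and Xirp2 (-0.44), differed by less.

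**Figure D5:**
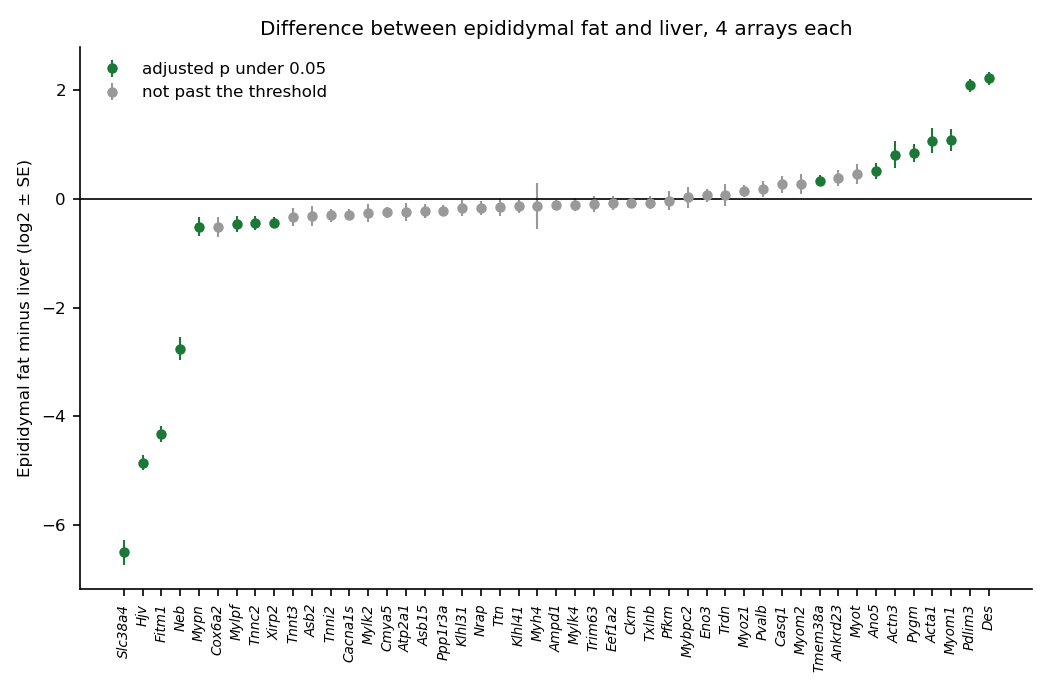
Epididymal fat minus liver for each of the 47 genes on the log2 scale, as the limma estimate with its SE over 4 arrays of each tissue, green where the adjusted p was under 0.05. The values run from -6.50 for Slc38a4 to 2.22 for Des, with 8 green points above 0 and 8 below.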

How the data were processed

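RNA was measured on Affymetrix mouse gene arrays in 12 samples. The values the authors deposited are normalized log2 levels, with 1 column per sample, and the submitters' processing notes name limma, without a version. How background was corrected and probes were normalized and summarized was not given in the sources used here. Raw arrays were not used here. Of 41345 probes, 23521 carried 1 gene symbol, 1814 several and 16010 none that is listed. For 23328 of the 23521 probes, the Entrez identifier was found in RefSeq.

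Members and gene lists were chosen with earlier results of these data known. The inguinal arrays chose the members and were not tested. The 8 epididymal and liver arrays were fitted with limma 3.58.1 in R 4.3.3, with 1 mean per group, 4 residual and 3.47 prior degrees of freedom and no filter on dim genes, so that every member has a value. Tests were two-sided and adjusted by Benjamini and Hochberg over 22180 genes. The fit was tested on simulated data. Replicate 2 minus replicate 1 in Mgl2-DTR was correlated across genes with the same difference in wild-type. It gave r = 0.05 in epididymal fat, 0.05 in liver and -0.10 in inguinal fat (0.06 without the members). Samples were therefore not treated as paired by their numbers.

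Genes named are the 10 widest gaps, up to 4 per list, the myosin heavy chains, troponins, calcium pumps and stores, 3 genes on either side of the margin, and up to 6 of the smallest p per test. The remaining members, Myl1, Mb, Ryr1, Adipoq and the members lower in epididymal fat were named after their values were seen.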

Additional observations from a re-analysis of the deposited data

How the results depend on the processing

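The number of genes the rule picked was 47 at a margin of 1.5, 61 at a margin of 1 and 29 at a margin of 2 on the log2 scale. It was 49 with the brightest probe taken over the 4 inguinal arrays and 44 after quantile normalization. The next brightest probe gave 46 genes, 44 of them among the 47. Genes with a single probe kept it, so among the members this setting could change only Ckm, Xirp2 and Fitm1. All of these fell outside the margin with their other probe. Leaving out 1 inguinal array in turn gave 49 to 116, the 116 without Mgl2-DTR replicate 1 and at most 51 without any other. An array left out can only keep or widen a gap, so each of these sets held the 47 by construction. The median fast fibre ratio of 0.750 was 0.620 over 18 listed fast genes and 0.725 after quantile normalization. Another statistic took the median log2 level above the mean of the low arrays in each high array separately. The difference between these medians, turned back into a ratio, was 0.634. Leave-one-out of epididymal and liver arrays gave 0 to 1 members called in epididymal fat, the 1 being Myom2 (1.03, limma adjusted p = 0.0414) without Mgl2-DTR replicate 1, with 0 to 501 calls over all genes. It gave 0 members in liver and 0 for the difference between the changes, where calls over all genes reached 321 against 0 in the main setting. Over all genes, liver had 1 call, and 0 to 10 under the alternatives. For epididymal fat minus liver, 16 members were called, 11 to 16 with an array left out, 6 with all 12 arrays in the fit, 11 with a filter on dim genes that kept 19 members, 22 at an adjusted p under 0.10 and 12 with a replicate block. Over all genes 45.7% were called in the reported fit, 50% with all 12 arrays, 62.5% of the 12509 genes past the filter, 56.0% at an adjusted p under 0.10 and 41.0% with the block. The replicate block called 0 members in the other comparisons, as without it. The fit of all 12 arrays takes in the inguinal spread by which the members were chosen. Other probes of Ckm, Xirp2 and Fitm1 had gaps of 0.67, -0.12 and -0.40. Of 74 alternatives for these comparisons, 67 gave a count within 1.5 times the reported one. Many of these were 0 members against 0 in the comparisons of genotype, which says little about stability. The other 7 were counts that moved further or the fast fibre ratios, which were listed as moved whatever their size. The cause was not tested. An array left out of a group leaves a lone sample, assumed to vary like the other groups. Signal over background was not used here, so how far dim members are limited by it is unknown.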
